A study of Homo sapiens with 6 samples.

Results

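Integrins and the leukocyte adhesion molecules they meet were examined in the human multiple myeloma line MM.1S, as a set of 39 genes chosen by name: 18 integrin alpha chains, 7 integrin beta chains, the 5 ICAMs, VCAM1, F11R, PECAM1, CD44, CD58, NCAM1, SELPLG, ALCAM and MCAM. All 39 were found once in a count table of 60671 genes. The comparison was between a CD38 knockout clone (CD38 KO; E9 in the sample titles) and the wild-type line (WT), with 3 libraries each, and was made to characterise the knockout phenotype. CD38 KO cells carried a CRISPR/Cas9 disruption of CD38, came from a single clone, and were sorted as live cells with no CD38 on the surface. WT cells were not edited and were sorted as live cells with CD38 on the surface. Both lines carried GFP and click beetle red luciferase, delivered by lentivirus, and were grown in the same RPMI-based medium. Because the knockout is 1 clone, its own ancestry, the editing, the different sort and the loss of CD38 cannot be told apart here. The p-values measure the spread between replicates prepared from the sorted cells.

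Integrins are heterodimers of an alpha and a beta chain that bind matrix proteins or receptors on other cells and connect them to actin through talin, kindlins and filamins. The pairing sets the ligand: alpha 4 joins beta 1 to bind VCAM1 and fibronectin, or beta 7 to bind MAdCAM-1, while the leukocyte alpha chains join beta 2 and bind ICAMs. Myeloma cells use these receptors, together with CD44 and the selectin ligand PSGL-1, to home to and stay in the bone marrow.

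Library totals ranged from 61515519 to 72335496 counts. Levels are given in CPM, which are counts scaled to the library total and to TMM factors, and a count of 0 allows up to 3 counts, which was 0.0405 to 0.0504 CPM depending on the library. CD38 itself (ENSG00000004468; chr4:15778275-15853230, plus strand in GENCODE 29, build GRCh38) had 0.798, 1.34 and 0.775 CPM in the CD38 KO libraries, against 42.5, 40.4 and 38.7 CPM in the WT libraries, a log2 fold change of -5.39 ± 0.134 (SE, with an adjusted p of 3.06e-16 by edgeR). All 9 plasma cell markers examined were at 1 CPM or more, with summed levels of 9631 to 9672 CPM in CD38 KO and 7676 to 7729.5 CPM in WT. Of these 9, 5 rose (IRF4, PRDM1, XBP1, TNFRSF17 and JCHAIN) and 2 fell (SLAMF7 and MZB1) at an adjusted p under 0.05. Of all tested genes, 44.4% were called at that threshold. Markers of monocytes and granulocytes, platelets, endothelium and stroma all had group means under 1 CPM, and their summed levels per library reached 1.36 CPM for the monocyte and granulocyte list and 0.704 CPM for the platelet list. Of 6 mature B cell markers, CD79B and BCL6 alone reached 1 CPM, and MS4A1, PAX5 and CD22 were near 0. The 9 T and NK cell markers summed to 6.54 to 6.84 CPM in CD38 KO and 2.36 to 2.999 CPM in WT. Of these 9 only CD3E passed 1 CPM, and it rose, at 4.83 ± 0.359 CPM in CD38 KO and 0.979 ± 0.07601 CPM in WT (SD, n = 3), while CD3D and CD3G were at 0.01098 and 0.0104 CPM in CD38 KO; the part of this difference in the results below was not tested. Of 5 epithelial markers, KRT8 alone passed 1 CPM.

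Of the 39 genes, 31 passed the filter on low counts and 23 of those were called changed by edgeR's quasi-likelihood test at an adjusted p under 0.05. In CD38 KO 13 of the 23 were higher and 10 lower. Across all 20120 tested genes the share called was 44.4%, with 22.8% higher and 21.6% lower. The clone differed from WT over much of the transcriptome, and the share of members called is read against that background. Among the 26 members at 1 CPM or more in either group, 20 were called, 11 higher and 9 lower, where 56.8% of all genes at that level were called. The 3 CD38 KO and 3 WT libraries did not overlap for 24 of the 31 tested members and for 52.5% of all tested genes. The absolute log2 fold change had a median of 0.63 among the 31 tested members and 0.32 among all tested genes. A call with a change of at least 2-fold was made for 7 members, PECAM1, ICAM1, ICAM5 and ITGA2 higher and ITGA8, ITGAM and ITGA1 lower. Over all tested genes the share was 11.3%, made up of 6% higher and 5.26% lower. ITGA1 counts among the 23 and the 7, but it passed the filter through WT alone. It could therefore only be tested because it was higher there. ITGA2 needed its CD38 KO libraries to pass, since WT alone, with 7 counts in replicate 2, fell short of the filter. With library size alone as the scaling, the split was 11 members higher and 12 lower, and over all genes 3632 higher and 5570 lower in place of 4592 and 4342. Levels of RNA in these bulk libraries cannot tell fewer expressing cells from less RNA per cell.

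**Figure D1:**
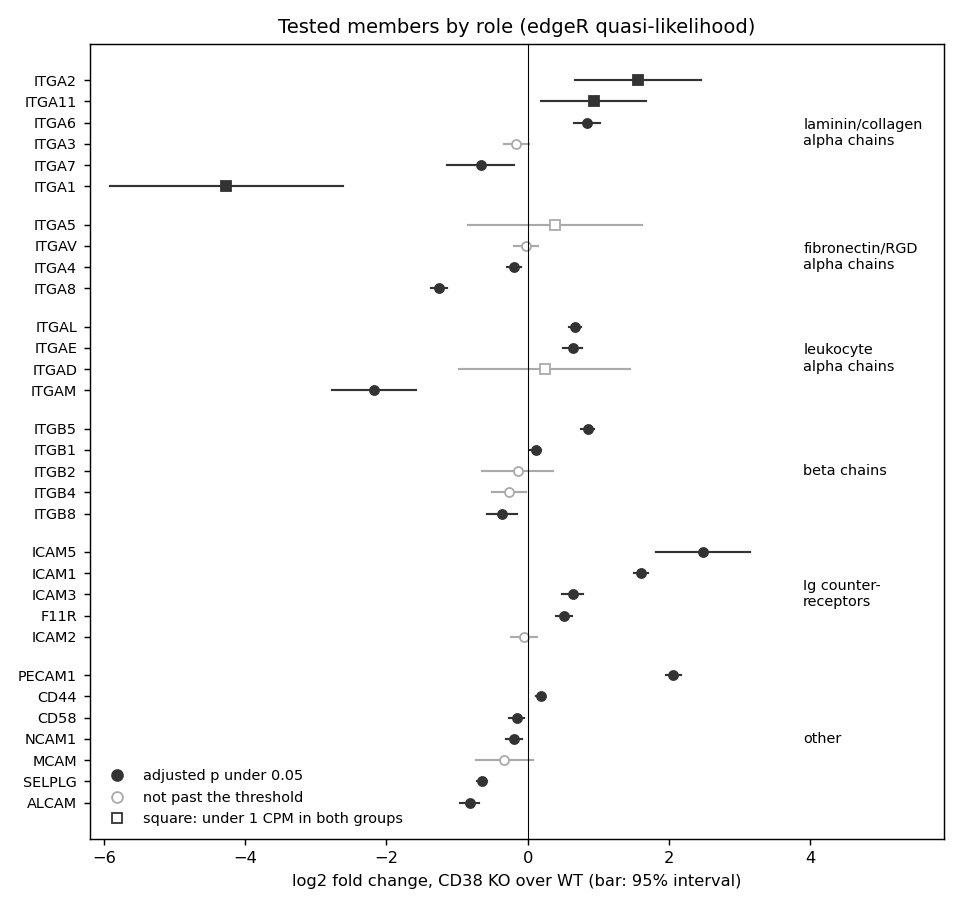
log2 fold change of the 31 tested members, CD38 KO over WT, with 95% intervals that are not adjusted for multiple tests, grouped by role. Filled symbols passed an adjusted p of 0.05, open symbols did not, and squares mark genes with a mean under 1 CPM in both groups. PECAM1 (2.06), ICAM1 (1.61) and ICAM5 (2.48) lie farthest to the right, and ITGA8 (-1.26), ITGAM (-2.18) and ITGA1, which rests on 3 counts in CD38 KO, farthest to the left.

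Of the 7 immunoglobulin superfamily counter-receptors of integrins, 5 were tested and 4 rose (ICAM1, ICAM5, ICAM3 and F11R), beside 22.8% of all tested genes called higher. None fell, ICAM2 did not pass the threshold, and ICAM4 and VCAM1 were too low to test. ICAM1, the inducible ligand of LFA-1 and Mac-1 on leukocytes and endothelium (ENSG00000090339; chr19:10270835-10286615, plus strand), had 153, 150.3 and 154 CPM in the CD38 KO libraries, against 48.8, 48.3 and 52.8 CPM in the WT libraries. All 3 CD38 KO libraries were close together and far above every WT library. Its log2 fold change was 1.61 ± 0.0471 (SE, with an adjusted p of 1.36e-16 by edgeR), and the CD38 KO mean was 3.05 times the WT mean.

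The windows upstream of the RefSeq transcription start (build GRCh38.p14) are shown for the members with a 2-fold change, at 1 CPM or more, whose promoter was in the table. These were ICAM1 (chr19:10270870-10271119, plus strand), ICAM5 (chr19:10289702-10289951, plus strand), ITGAM (chr16:31259725-31259974, plus strand) and ITGA8 (chr10:15719923-15720172, minus strand), each from 250 bases before the start to the base before it, 5′ to 3′ on the gene's strand. Capitals mark exact matches on either strand: GGAAATTCC and the STAT-type motif TTCNNNGAA in ICAM1, the Sp1-type GGGCGG in ICAM5 and ITGA8, and the PU.1-type GAGGAA in ITGAM. Matches of GGGCGG in ICAM1 and ITGAM are not marked.
ICAM1: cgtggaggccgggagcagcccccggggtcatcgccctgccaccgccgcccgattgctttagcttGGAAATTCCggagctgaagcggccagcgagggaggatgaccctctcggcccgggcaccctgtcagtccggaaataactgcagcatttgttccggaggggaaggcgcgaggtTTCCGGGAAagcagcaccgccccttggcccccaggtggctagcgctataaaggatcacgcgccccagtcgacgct
ICAM5: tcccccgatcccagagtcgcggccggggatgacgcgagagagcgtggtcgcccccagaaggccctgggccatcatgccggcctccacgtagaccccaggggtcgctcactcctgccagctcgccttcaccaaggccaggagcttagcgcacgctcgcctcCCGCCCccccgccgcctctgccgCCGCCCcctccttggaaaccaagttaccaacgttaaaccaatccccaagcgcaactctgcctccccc
ITGAM: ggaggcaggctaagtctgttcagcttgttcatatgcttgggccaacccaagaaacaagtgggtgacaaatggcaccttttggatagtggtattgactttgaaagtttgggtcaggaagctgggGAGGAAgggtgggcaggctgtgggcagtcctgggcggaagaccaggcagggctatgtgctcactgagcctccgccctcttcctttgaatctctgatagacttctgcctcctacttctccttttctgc
ITGA8: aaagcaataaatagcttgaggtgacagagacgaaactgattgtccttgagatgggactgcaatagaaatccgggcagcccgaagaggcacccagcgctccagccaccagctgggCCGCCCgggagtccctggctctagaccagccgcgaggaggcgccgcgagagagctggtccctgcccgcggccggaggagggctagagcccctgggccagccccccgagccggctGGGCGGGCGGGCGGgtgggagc
The ICAM1 window holds GGAAATTCC, a kB-type sequence long studied in this promoter and looked for here after the window had been read, which stood in 0.461% of the 35116 promoters of the table. It also holds the STAT-type match TTCCGGGAA, a motif found in 7.66% of all promoters and in 2 of the 25 member promoters, ICAM1 and ITGAE. The 3 matches of GGGCGG at the end of the ITGA8 window overlap one another. A match describes the letters of the window and is neither a binding site nor a cause.

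ICAM5 (telencephalin), known from neurons, lies on the same strand as ICAM1, 3365 bases downstream of its end (ENSG00000105376; chr19:10289981-10296778, plus strand). It had 1.58, 1.28 and 1.29 CPM in the CD38 KO libraries, against 0.297, 0.166 and 0.274 CPM in the WT libraries. Its groups did not overlap, but the level was low, with 101, 76 and 80 counts in CD38 KO and 22, 11 and 18 in WT. The log2 fold change was 2.48 ± 0.321 (SE, with an adjusted p of 1.66e-06 by edgeR). ICAM4, the erythroid Landsteiner-Wiener glycoprotein that sits between ICAM1 and ICAM5, was listed at 0 counts in every library. In GENCODE 29 all 1427 exonic bases of ICAM4 overlap an antisense gene that had 0 to 3 counts per library, and how reads in such shared exons were counted is not given in the sources used here. ICAM3, the LFA-1 ligand of resting leukocytes, lies 36997 bases beyond ICAM5 on the opposite strand (ENSG00000076662; chr19:10333776-10339823, minus strand). It had 29.1, 31.3 and 31.9 CPM in the CD38 KO libraries, against 19.9, 19.5 and 20.01 CPM in the WT libraries, with no overlap, and a log2 fold change of 0.63 ± 0.0691 (SE, with an adjusted p of 1.52e-07 by edgeR). An antisense gene with 5 to 28 counts per library overlaps 2101 of its 2950 exonic bases.

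F11R (JAM-A), a junctional adhesion molecule that can bind LFA-1, had 96.7, 93.2 and 95.3 CPM in the CD38 KO libraries, against 69.4, 61.4 and 69.2 CPM in the WT libraries, a log2 fold change of 0.51 ± 0.0522 (SE, with an adjusted p of 5.8e-08 by edgeR). The groups did not overlap. A readthrough gene with 0 to 5 counts per library shares 1853 of its 5066 exonic bases. ICAM2, a constitutive LFA-1 ligand, had 12.8, 13.6 and 14.3 CPM in the CD38 KO libraries, against 13.5, 14.4 and 14.4 CPM in the WT libraries, and the groups overlapped. The 95% interval of its log2 fold change was -0.23 to 0.13. PRR29, on the other strand, shares 869 of the 3243 exonic bases of ICAM2 and had 352 to 452 counts in CD38 KO and 237 to 303 in WT. VCAM1, the endothelial ligand of alpha 4 integrins, had 1 count over the CD38 KO libraries and 2 over the WT libraries, too few for a comparison at this depth.

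Among the members at 1 CPM or more in both groups, PECAM1 (CD31) had the largest rise. It is an immunoglobulin superfamily receptor that binds itself across cell contacts and also binds CD38 (ENSG00000261371; chr17:64319415-64413776, minus strand). It had 128, 132 and 125 CPM in the CD38 KO libraries, against 29.9, 31.7 and 30.6 CPM in the WT libraries. Every CD38 KO library was far above every WT library, and the replicates within a group were close together. The log2 fold change was 2.06 ± 0.0495 (SE, with an adjusted p of 5.51e-18 by edgeR). PECAM1 is abundant in endothelium and platelets, whose defining markers were near 0: the summed endothelial markers were at 0.387 to 0.438 CPM in CD38 KO and 0 to 0.0811 CPM in WT, and none of the 6 had a group mean of 1 CPM. VWF had 24, 22 and 9 counts in CD38 KO and 4, 0 and 0 in WT, the direction of PECAM1. The 5 platelet markers summed to 0.3697 to 0.704 CPM in CD38 KO and 0.213 to 0.347 CPM in WT, with PF4 at 0 counts in every library. The part of these markers in the PECAM1 result was not tested.

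Among the other adhesion molecules SELPLG, ALCAM, NCAM1 and CD58 fell, CD44 rose by little and MCAM did not pass the threshold. SELPLG (PSGL-1), the mucin that P-selectin binds (ENSG00000110876; chr12:108622277-108633959, minus strand), had the highest level per kilobase of exon of all members. It had 2346, 2462 and 2324 CPM in the CD38 KO libraries, against 3789, 3629.5 and 3711 CPM in the WT libraries. The lowest WT library was well above the highest CD38 KO library, and the log2 fold change was -0.64 ± 0.03405 (SE, with an adjusted p of 1.93e-12 by edgeR). SELPLG took 0.226 to 0.238% of all counts in the CD38 KO libraries and 0.378 to 0.388% in the WT libraries.

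CD44, the hyaluronan receptor (ENSG00000026508; chr11:35138870-35232402, plus strand), had 1739.6, 1768 and 1721 CPM in the CD38 KO libraries, against 1556, 1533 and 1518 CPM in the WT libraries. The groups were apart but the difference was small, a log2 fold change of 0.18 ± 0.0326 (SE, with an adjusted p of 8.98e-05 by edgeR). Per kilobase of exon, SELPLG was 5.47 ± 0.0995 times CD44 in CD38 KO and 9.69 ± 0.1696 times CD44 in WT (SD, n = 3).

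ALCAM (CD166), which binds CD6 and itself, had 42.8, 37.4 and 43.01 CPM in the CD38 KO libraries, against 76.4, 66.1 and 75.5 CPM in the WT libraries. The groups did not overlap and the log2 fold change was -0.82 ± 0.0657 (SE, with an adjusted p of 3.71e-09 by edgeR). NCAM1 (CD56), a surface marker of many myelomas, had 55.8, 58.5 and 53.9 CPM in the CD38 KO libraries, against 68.3, 61.1 and 63.1 CPM in the WT libraries, a log2 fold change of -0.19 ± 0.0552 (SE, with an adjusted p of 0.00653 by edgeR). CD58 (LFA-3), the ligand of CD2 on T and NK cells, had 73.9, 74.5 and 75.4 CPM in the CD38 KO libraries, against 78.1, 86.7 and 84.6 CPM in the WT libraries, a log2 fold change of -0.16 ± 0.0496 (SE, with an adjusted p of 0.0138 by edgeR). The groups were apart for both genes, but by less than the range within WT. The NCAM1 call was lost without CD38 KO replicate 3 (edgeR adjusted p = 0.0603) or WT replicate 1 (0.0502), and the CD58 call without WT replicate 2 (0.0656) or WT replicate 3 (0.0686). MCAM (CD146) had 1.94, 2.12 and 1.89 CPM in the CD38 KO libraries, against 2.73, 2.72 and 2.04 CPM in the WT libraries, with overlapping groups and a 95% interval of -0.73 to 0.068 for its log2 fold change, and 509 of its 7422 exonic bases overlap CBL on the other strand, which had 3939 to 4558 counts in CD38 KO and 2456 to 3245 in WT.

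**Figure D2:**
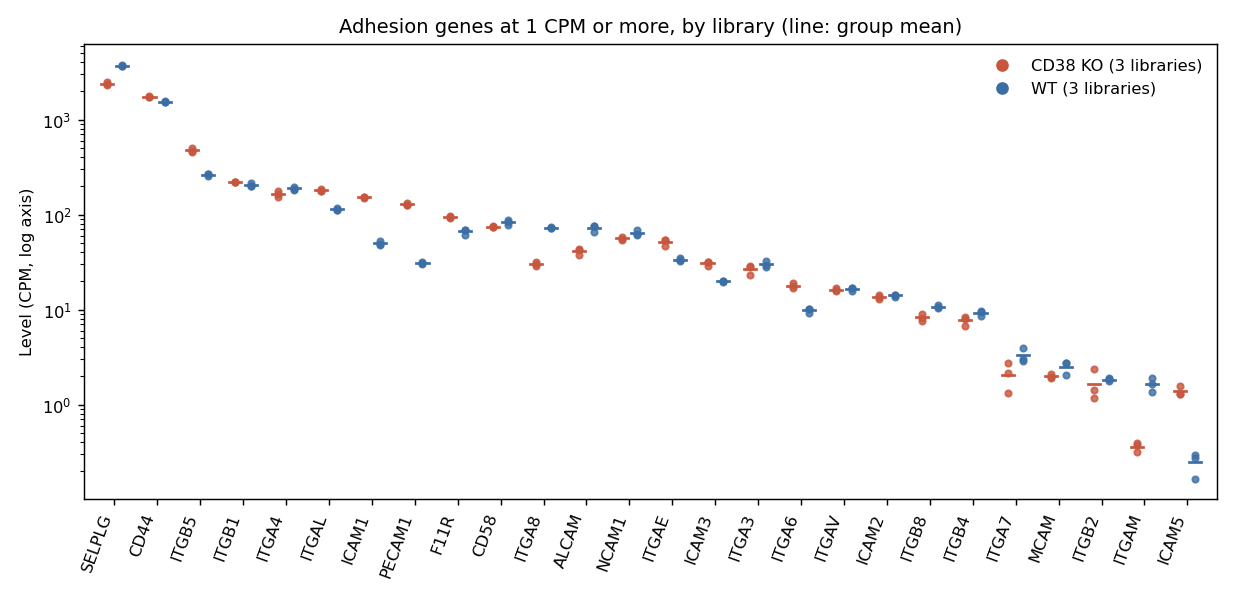
Level in CPM (log axis) of the 26 members at 1 CPM or more in either group, with 1 point per library and a line at the group mean, CD38 KO left of WT for each gene. Levels are not divided by gene length. The points of PECAM1, ICAM1, ICAM5, ITGA8 and ITGAM are far apart between the groups.

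Of the leukocyte alpha chains ITGAL, ITGAM, ITGAX and ITGAD, which pair with beta 2, and ITGAE, which pairs with beta 7, ITGAL and ITGAE rose, ITGAM fell, ITGAD did not pass the threshold and ITGAX was too low to test. ITGAL (CD11a), the alpha chain of LFA-1 (ENSG00000005844; chr16:30472658-30523185, plus strand), had 178, 188 and 177 CPM in the CD38 KO libraries, against 117, 111 and 113 CPM in the WT libraries. The groups were far apart relative to their spread, with a log2 fold change of 0.67 ± 0.0428 (SE, with an adjusted p of 3.89e-11 by edgeR). ITGAE (CD103), which with beta 7 binds E-cadherin, had 47.2, 54.3 and 53.7 CPM in the CD38 KO libraries, against 32.2, 34.7 and 33.01 CPM in the WT libraries. Its groups did not overlap and the log2 fold change was 0.64 ± 0.0633 (SE, with an adjusted p of 3.97e-08 by edgeR). HASPIN lies on the opposite strand and shares 427 exonic bases with ITGAE. It had 653, 590 and 554 counts in CD38 KO and 304, 288 and 269 in WT, and its part in the ITGAE counts was not tested.

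ITGAM (CD11b), the alpha chain of Mac-1 on myeloid cells (ENSG00000169896; chr16:31259967-31332892, plus strand), had 0.391, 0.319 and 0.371 CPM in the CD38 KO libraries, against 1.905, 1.36 and 1.64 CPM in the WT libraries. The level was low in both groups and the groups did not overlap. The log2 fold change was -2.18 ± 0.282 (SE, with an adjusted p of 1.72e-06 by edgeR). ITGAD (CD11d) had 8 to 25 counts across CD38 KO and 7 to 25 across WT, and ITGAX (CD11c) 4 to 5 and 4 to 7.

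Of the 6 alpha chains for fibronectin, VCAM1 and ligands with the RGD sequence, 4 were tested and 2 fell, beside 21.6% of all tested genes called lower. ITGA8, which pairs with beta 1 and binds nephronectin and other RGD ligands (ENSG00000077943; chr10:15513949-15720125, minus strand), had 31.9, 29.1 and 30.2 CPM in the CD38 KO libraries, against 73.3, 72.5 and 72.3 CPM in the WT libraries. The WT libraries were close to one another and all far above the highest CD38 KO library. The log2 fold change was -1.26 ± 0.0542 (SE, with an adjusted p of 6.91e-14 by edgeR). ITGA4, the chain of VLA-4 and of alpha 4 beta 7 (ENSG00000115232; chr2:181457202-181536187, plus strand), had 176, 152 and 166 CPM in the CD38 KO libraries, against 188, 182 and 196 CPM in the WT libraries. The groups did not overlap, but the gap between them was smaller than the range within CD38 KO, and the log2 fold change was -0.20 ± 0.0493 (SE, with an adjusted p of 0.00267 by edgeR). ITGAV, the chain shared by the vitronectin receptors, had 16.1, 16.8 and 15.5 CPM in the CD38 KO libraries, against 16.9, 16.9 and 15.5 CPM in the WT libraries, with overlapping groups and a 95% interval of -0.20 to 0.14 for its log2 fold change. ITGA5, the classical fibronectin receptor chain, had 7 to 18 counts across CD38 KO and 5 to 16 across WT and did not pass the threshold. ITGA9 (0 to 4 counts and 0 to 10) and the platelet chain ITGA2B (2 to 21 and 4 to 11) were too low to test.

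Among the laminin receptor chains, ITGA6 rose, ITGA7 fell and ITGA3 did not pass the threshold. ITGA6 had 16.7, 18.9 and 17.5 CPM in the CD38 KO libraries, against 10.2, 10.2 and 9.17 CPM in the WT libraries. Its groups were clearly apart, with a log2 fold change of 0.84 ± 0.0899 (SE, with an adjusted p of 1.13e-07 by edgeR). A set of 3 antisense genes overlaps ITGA6 exons, and the one with the most reads had 275 to 333 counts in CD38 KO and 220 to 275 in WT. ITGA7 had 2.75, 1.31 and 2.13 CPM in the CD38 KO libraries, against 3.04, 3.92 and 2.89 CPM in the WT libraries, a log2 fold change of -0.67 ± 0.227 (SE, with an adjusted p of 0.0225 by edgeR), and its call was lost without CD38 KO replicate 2 (adjusted p = 0.102), CD38 KO replicate 3 (0.0578) or WT replicate 2 (0.114). ITGA3 had 23.1, 28.9 and 28.3 CPM in the CD38 KO libraries, against 32.3, 27.9 and 29.5 CPM in the WT libraries, with overlapping groups and a log2 fold change of -0.16 ± 0.0834 (SE, with an adjusted p of 0.13 by edgeR). It passed with library size alone (-0.24, adjusted p = 0.0203).

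The collagen receptor chains all had group means under 1 CPM. ITGA1 had 0, 1 and 2 counts in CD38 KO and 20, 16 and 35 in WT, so that CD38 KO over WT was 0.0469 (95% interval for counting error alone, 0.00946 to 0.143). It passed the filter through WT alone, so it could only be tested because it was higher there. PELO, on the same strand, shares 475 of the 18566 exonic bases of ITGA1. PELO had 1267 to 1353 counts in CD38 KO and 1149 to 1428 in WT, and its part in the ITGA1 counts was not tested. ITGA2, the neighbour of ITGA1, had 54, 52 and 29 counts in CD38 KO and 23, 7 and 21 in WT, a log2 fold change of 1.56 (edgeR adjusted p = 0.00511). WT alone would not have carried ITGA2 through the filter, so its test needed the group where it was higher. ITGA11 had 69, 38 and 49 counts in CD38 KO and 30, 42 and 18 in WT, a log2 fold change of 0.93 (edgeR adjusted p = 0.0383) whose call was lost in 8 of 15 alternatives, among them leaving out CD38 KO replicate 1 (adjusted p = 0.155), CD38 KO replicate 3 (0.065), WT replicate 1 (0.109) or WT replicate 3 (0.169). ITGA10 had 4, 8 and 0 counts in CD38 KO and 40, 7 and 37 in WT and was not tested.

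Of the 7 beta chains, ITGB5 and ITGB1 rose, ITGB8 fell, ITGB4 and ITGB2 did not pass the threshold, and ITGB3 (0 to 6 counts in CD38 KO, 4 to 6 in WT) and ITGB6 (0 to 2 and 0 to 1) were too low to test. ITGB5, which pairs with alpha V alone and binds vitronectin (ENSG00000082781; chr3:124761948-124901418, minus strand), had 473, 498 and 451 CPM in the CD38 KO libraries, against 269.8, 256 and 265 CPM in the WT libraries. The lowest CD38 KO library was far above the highest WT library, and the log2 fold change was 0.85 ± 0.0415 (SE, with an adjusted p of 5.51e-13 by edgeR). ITGB1, the beta chain with the most alpha partners (ENSG00000150093; chr10:32900319-33005792, minus strand), had 221, 220.2 and 222 CPM in the CD38 KO libraries, against 202, 199.7 and 213 CPM in the WT libraries. Its groups did not overlap but differed by little, a log2 fold change of 0.11 ± 0.0396 (SE, with an adjusted p of 0.0271 by edgeR). The ITGB1 call was lost with upper-quartile factors, library size alone, no filter on low counts, and without CD38 KO replicate 3 (adjusted p = 0.0667), WT replicate 1 (0.0899) or WT replicate 2 (0.1). ITGB8, which with alpha V activates latent TGF-beta, had 9.07, 8.23 and 7.59 CPM in the CD38 KO libraries, against 11.2, 10.3 and 10.7 CPM in the WT libraries, a log2 fold change of -0.37 ± 0.103 (SE, with an adjusted p of 0.00578 by edgeR), and a gene on its other strand shared 98 exonic bases and had 760 to 789 counts in CD38 KO and 880 to 969 in WT. ITGB4, the partner of alpha 6 in hemidesmosomes, had 6.68, 7.999 and 8.43 CPM in the CD38 KO libraries, against 9.52, 9.67 and 8.54 CPM in the WT libraries, with an edgeR adjusted p of 0.064, and passed with library size alone and with protein-coding genes only.

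ITGB2 (CD18), the beta partner of ITGAL, ITGAM, ITGAX and ITGAD, had 1.44, 2.37 and 1.18 CPM in the CD38 KO libraries, against 1.89, 1.75 and 1.86 CPM in the WT libraries. The groups overlapped, CD38 KO replicate 2 standing above all WT libraries and the other CD38 KO libraries below them, and the 95% interval of the log2 fold change was -0.65 to 0.36. Per kilobase of exon, ITGAL was 130.1, 83.2 and 158 times ITGB2 in the CD38 KO libraries and 65.2, 66.6 and 63.8 times in the WT libraries. All 3 CD38 KO ratios were above all WT ratios, and the spread between CD38 KO libraries was wide.

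Shares and ratios between chains were taken per kilobase of exon in GENCODE 29, which divides by the length of all annotated exons and not of the transcripts these cells make. On that scale, ITGAL and ITGA4 together held most of the alpha chain reads. ITGAL took 40.7% ± 1.31 in CD38 KO and 27.6% ± 0.471 in WT (SD, n = 3) of the summed alpha chain reads per kilobase. ITGA4 took 30.3% ± 2.16 in CD38 KO and 37.5% ± 1.08 in WT, ITGA8 5.87% ± 0.267 in CD38 KO and 15.2% ± 0.209 in WT, and ITGAE 11.3% ± 0.871 in CD38 KO and 7.85% ± 0.437 in WT (SD, n = 3). The libraries of the groups did not overlap for any of these 4 shares, which were not tested. With the length of the longest protein-coding transcript, a choice made after seeing the data, ITGAL took 33.5% ± 1.28 in CD38 KO and 22.3% ± 0.447 in WT and ITGA4 37.8% ± 2.51 in CD38 KO and 45.97% ± 1.15 in WT, so the order of ITGAL and ITGA4 within CD38 KO depends on the length used while the direction of each share between the groups does not. The sum over all alpha chains was 68.7 ± 0.0985 CPM per kilobase in CD38 KO and 63.7 ± 1.05 in WT (SD, n = 3).

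Among the 7 beta chains of the set, ITGB5 took 65.5% ± 1.18 in CD38 KO and 52.9% ± 0.8098 in WT and ITGB1 32.8% ± 1.19 in CD38 KO and 44.1% ± 0.933 in WT (SD, n = 3). Per kilobase, ITGB5 was 37.4 ± 0.389 times its partner ITGAV in CD38 KO and 20.4 ± 1.22 times in WT (SD, n = 3). ITGB7, the other beta partner of ITGA4 and the partner of ITGAE, is not among the 39 genes but exceeded all of them per kilobase. It was at 16753 ± 480.5 CPM in CD38 KO and 21603 ± 912 CPM in WT (SD, n = 3), a log2 fold change of -0.37 ± 0.0342 (SE, with an adjusted p of 1.62e-08 by edgeR). With ITGB7 in the sum, it alone took 97.1% ± 0.0712 in CD38 KO and 98.4% ± 0.0449 in WT of the beta chain reads per kilobase. The share of ITGB1 then turned its direction, to 0.956% ± 0.0296 in CD38 KO and 0.696% ± 0.0331 in WT, and that of ITGB5 was 1.91% ± 0.07203 in CD38 KO and 0.835% ± 0.0133 in WT (SD, n = 3).

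**Figure D3:**
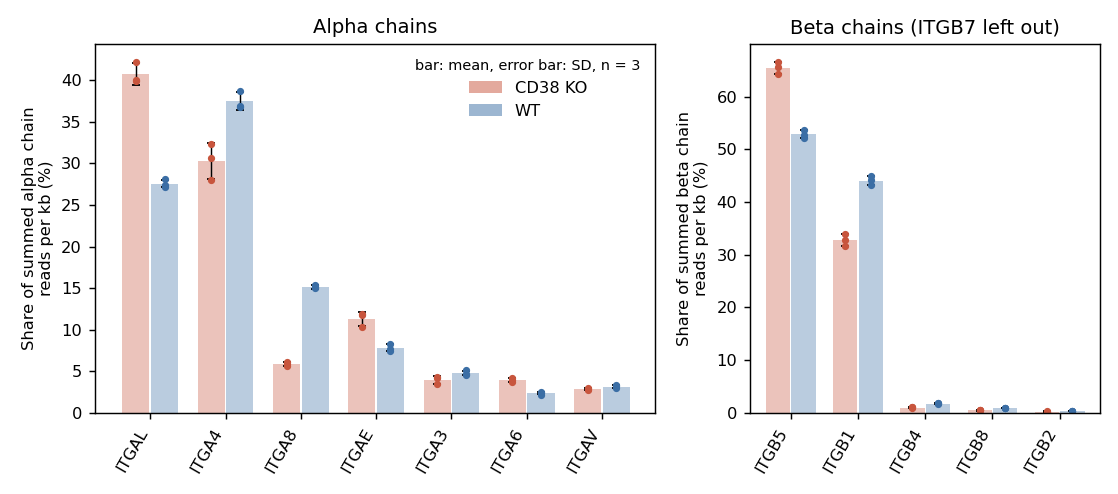
Share of the summed reads per kilobase of all alpha chains (left) and of the 7 beta chains without ITGB7 (right) held by the more abundant chains and by ITGB2. Bars are means of 3 libraries, error bars SD and points single libraries, CD38 KO left of WT. ITGAL and ITGB5 hold larger shares in CD38 KO, and ITGA4, ITGA8 and, with ITGB7 left out, ITGB1 smaller ones.

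The proteins that activate integrins and tie them to actin were read from a list of 40 genes. In it 37 genes passed the filter, of which 14 rose and 13 fell (72.97%, beside 44.4% of all tested genes); their log2 fold changes had a median of -0.02. SYK, a kinase downstream of integrins and immunoreceptors, had 7.13, 7.43 and 6.54 CPM in the CD38 KO libraries, against 57.5, 58.6 and 58.2 CPM in the WT libraries, a log2 fold change of -3.05 ± 0.07101 (SE, with an adjusted p of 3.63e-18 by edgeR). FLNA (filamin A), which crosslinks actin and binds beta chain tails, was at 254 ± 11.3 CPM in CD38 KO and 653 ± 52.3 CPM in WT (SD, n = 3), a log2 fold change of -1.36 (edgeR adjusted p = 1.96e-12). The scaffold BCAR1 (p130Cas) was at 2.87 ± 0.598 CPM in CD38 KO and 0.645 ± 0.143 CPM in WT (SD, n = 3), a log2 fold change of 2.14 (edgeR adjusted p = 2.6e-07). LIMS1 (PINCH), a partner of integrin-linked kinase, was at 131 ± 5.68 CPM in CD38 KO and 80.8 ± 2.34 CPM in WT (SD, n = 3), a log2 fold change of 0.70 (edgeR adjusted p = 7.34e-11). KIF14, a mitotic kinesin that also acts on RAP1A, was at 25.9 ± 6.04 CPM in CD38 KO and 12.5 ± 2.95 CPM in WT (SD, n = 3), a log2 fold change of 1.06 (edgeR adjusted p = 0.0125) that was not called with no filter on low counts (adjusted p = 0.059). The other called genes of this list included TLN1 (talin), -0.28, and RAP1B, -0.47, among those that fell, and PTK2B (PYK2), 0.61, and LYN, 0.40, among those that rose, values that are log2 fold changes.

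**Figure D4:**
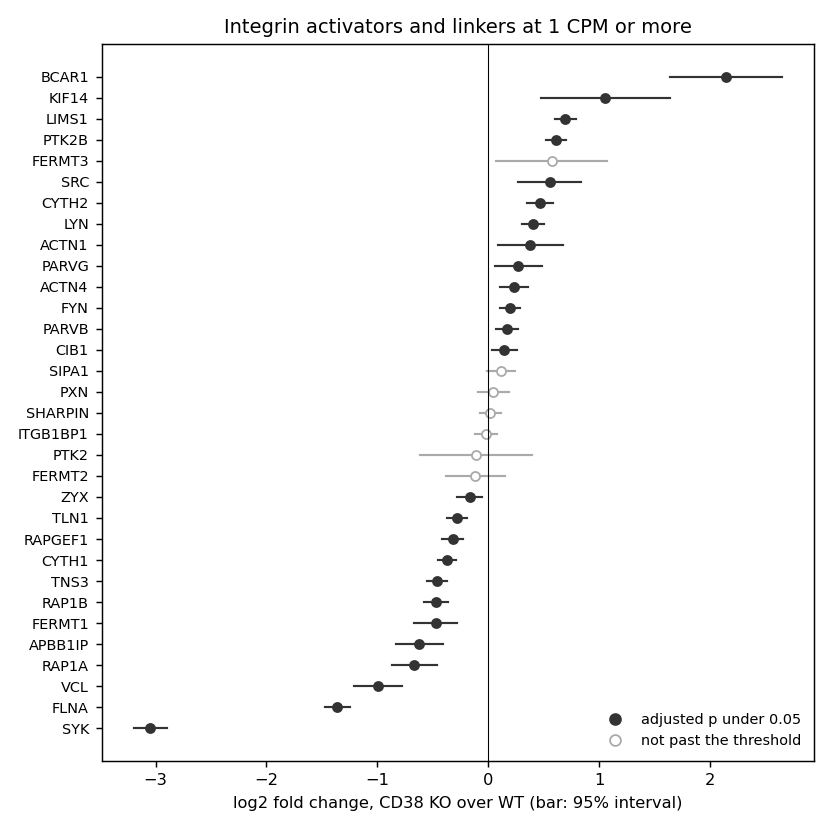
log2 fold change, CD38 KO over WT, with unadjusted 95% intervals, of the integrin activators and linkers reported here, at 1 CPM or more in either group. Filled points passed an adjusted p of 0.05. SYK (-3.05) and FLNA (-1.36) are the lowest and BCAR1 (2.14) the highest.

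Of 26 matrix and soluble ligands, 13 were tested, 4 rose and 1 fell, a share of 38.5% beside 44.4% of all tested genes. At 1 CPM or more, tenascin C (TNC) was at 11.01 ± 1.42 CPM in CD38 KO and 4.86 ± 0.719 CPM in WT, the laminin chain LAMB3 at 23.1 ± 1.35 CPM in CD38 KO and 11.7 ± 1.98 CPM in WT and fibronectin (FN1) at 36.5 ± 3.29 CPM in CD38 KO and 19.96 ± 1.11 CPM in WT (SD, n = 3), with log2 fold changes of 1.18, 0.98 and 0.87 (edgeR adjusted p at most 2.94e-07). Under 1 CPM, MADCAM1, the ligand of alpha 4 beta 7, rose. The laminin chain LAMA4 fell, but with 2 counts in each CD38 KO library it passed the filter through WT alone. Of 14 further surface partners, 10 were tested, 1 rose (CD226, under 1 CPM in both groups) and 5 fell, CD38, CD6, ITGB7 and CD47 among them. The share called was 60%, beside the same 44.4%. That share counts CD38, the targeted gene, whose fall was set by the design. CD6, the receptor of ALCAM, was at 1.18 ± 0.0674 CPM in CD38 KO and 1.895 ± 0.316 CPM in WT (SD, n = 3), a log2 fold change of -0.68 (edgeR adjusted p = 0.0161) that was not called without WT replicate 1 (0.0993). The calls of CD47 (up to 0.135), CD226 (up to 0.0674) and MADCAM1 (0.071) were also lost by leaving out 1 library, values that are adjusted p: CD47 without CD38 KO replicate 1 or 3 or WT replicate 2 or 3, CD226 without CD38 KO replicate 2 or WT replicate 2 or 3, and MADCAM1 without WT replicate 3.

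PSGL-1 binds selectins only when it carries the right glycans and sulfated tyrosines. Of 11 enzymes of that modification 10 were tested, 2 rose and 1 fell, a share of 30% and below the 44.4% of all tested genes. The sialyltransferase ST3GAL4 was at 21.8 ± 1.497 CPM in CD38 KO and 8.35 ± 0.297 CPM in WT (SD, n = 3), a log2 fold change of 1.38 (edgeR adjusted p = 3.36e-11). The core enzyme C1GALT1 was at 38.7 ± 1.05 CPM in CD38 KO and 30.4 ± 0.397 CPM in WT and the fucosyltransferase FUT4 at 3.85 ± 0.665 CPM in CD38 KO and 5.09 ± 0.178 CPM in WT (SD, n = 3), log2 fold changes of 0.35 (edgeR adjusted p = 5.74e-05) and -0.40 (edgeR adjusted p = 0.0319). The FUT4 call was lost without any 1 library except CD38 KO replicate 3, with adjusted p up to 0.124. FUT7, the leukocyte fucosyltransferase for selectin ligands, was at 0.0164 CPM in CD38 KO and 0.00958 CPM in WT and was not tested. Of 9 linkers and partners of CD44, 8 were tested, 1 rose and 3 fell, a share of 50%, close to the 44.4% of all tested genes. HMMR, a hyaluronan-binding protein that is also a mitotic spindle gene, was at 61.96 ± 5.49 CPM in CD38 KO and 30.5 ± 0.319 CPM in WT (SD, n = 3), a log2 fold change of 1.02 (edgeR adjusted p = 2.44e-11). The splicing factor ESRP1, the sheddase ADAM10 and the actin linker EZR fell, with log2 fold changes of -0.71 (edgeR adjusted p = 0.00432), -0.34 (edgeR adjusted p = 0.00106) and -0.20 (edgeR adjusted p = 0.000168). The ESRP1 call was lost without WT replicate 1 (adjusted p = 0.0519).

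The position of the 23 called members was compared with that of their neighbours, the 5 tested genes on either side in GENCODE 29. PECAM1 and ITGA8 were among 7 that lay outside the range of theirs. The neighbours of PECAM1 on chromosome 17 had a median log2 fold change of 0.14 and a range of -0.21 to 1.17, and those of ITGA8 on chromosome 10 a median of -0.00985 and a range of -0.52 to 0.53. ICAM1 and ICAM5 are each other's neighbours, and the 10 genes around ICAM1, ICAM5 included, had a median of 0.074, with 3 called higher and 2 lower. ITGA1 and ITGA2, adjacent on chromosome 5, changed in opposite directions, but ITGA1 passed the filter through WT alone. ITGA2 would not have passed it on WT alone.

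Around PECAM1, 5 of 10 neighbours were called higher and 1 lower. Around ITGB5 on chromosome 3, 7 of 10 neighbours were called higher and 1 lower, with a median of 0.51. Around ITGAE on chromosome 17, 5 were called higher and 0 lower, with a median of 0.45. Around SELPLG and around ITGA7, both on chromosome 12, 5 of 10 were called lower and 0 higher, with medians of -0.47 and -0.73, and 31.3% of all tested genes of chromosome 12 were called lower. Around ITGA4 on chromosome 2, 5 of 10 were called lower and 0 higher, with a median of -0.47. Of the tested genes of each chromosome, 27.2% on chromosome 17 and 21.6% on chromosome 3 were called higher, and 24.9% on chromosome 2 lower. Other neighbourhoods went against their member. Around ITGA11 on chromosome 15, which rose, 2 of 10 were called higher and 5 lower. Of all tested genes of chromosome 15, 25.8% were called higher and 30.1% lower. Around ITGB8 on chromosome 7, which fell, 4 of 10 were called higher and 2 lower, beside 20.3% and 23.4% of all tested genes of that chromosome. Neighbours of ITGAL, which rose, had a median of -0.18. The part of these neighbourhoods in the members' changes was not tested.

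**Figure D5:**
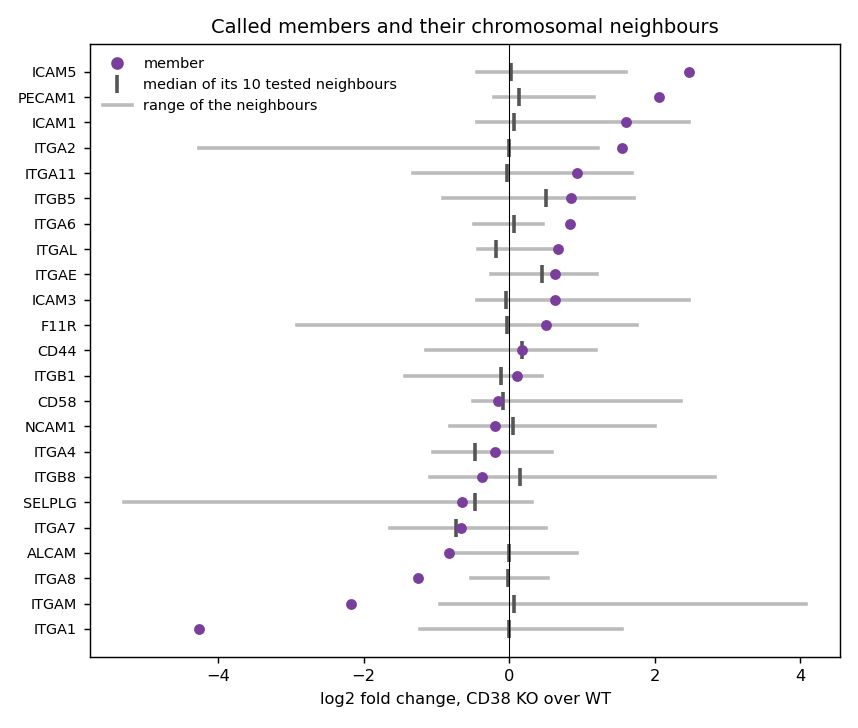
log2 fold change, CD38 KO over WT, of each called member (point) with the median (tick) and range (bar) of the 10 tested genes nearest to it, 5 on either side. The points of ICAM5, PECAM1, ITGA2, ITGA6, ITGA8, ITGAM and ITGA1 lie outside the range of their neighbours, whereas SELPLG and ITGA7 lie near the median of theirs. ITGA1 passed the filter through WT alone, and ITGA2 would not have passed it on WT alone.

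Promoter windows of 300 bases, including 50 after the start, were found for 25 of the 39 members. Exact matches on both strands were counted for 6 motifs. The NF-kB consensus was present in 6 of 25 member windows and 5.91% of all windows, GAGGAA in 10 and 27.9%, and GGGCGG in 14 and 44.95%. The AP-1 motif TGANTCA was in 1 of 25 and 7.71%, the RUNX motif TGTGGT in 2 and 13.1%, and TTCNNNGAA in 2 and 7.66%. The 6 members with the NF-kB consensus were VCAM1, MCAM, ITGA1, ITGA5, ITGA10 and ITGA11. All but MCAM were under 1 CPM in both groups. Matches of different motifs were counted separately where they overlapped.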

How the data were processed

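RNA of 3 CD38 KO and 3 WT replicates, prepared from the sorted cells, was made into cDNA with a SMARTer Ultra Low kit, per the labels' protocols. The authors deposited 1 table of raw counts per Ensembl gene. STAR 2.7.9a, Partek and DESeq2 are named in the submitters' processing notes; which build, annotation and strand setting were used is not given in the sources used here. Of 60871 lines, 200 repeated an identifier with the same counts and were dropped. No value of another sample stood in the table.

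Genes passing filterByExpr were tested with the quasi-likelihood test of edgeR 4.0.16 (R 4.3.3; TMM factors, robust fit on the 6 libraries), and p-values were adjusted by Benjamini-Hochberg over 20120 genes. Calls needed an adjusted p under 0.05. On simulated counts over 19256 genes, laid out as the 6 libraries, 66 or 67 genes were given each fold change. They were drawn from genes at 1 CPM or more in WT, and all others were left unchanged. The test found 82.1% of the genes given a 1.5-fold change, 97.0% at 2-fold and 100% at 4-fold, while false calls made up 4.12% of 194. These rates do not cover genes under 1 CPM, or data in which 44.4% of genes are called, as here. Positions and lengths came from GENCODE 29 by Ensembl identifier, and promoters from RefSeq (GRCh38.p14) by symbol. Intervals on counts cover counting error only. The members, pathway lists and markers were chosen with earlier results of these data known. From the lists, the text names the called genes at 1 CPM or more with the largest changes in each direction, up to 3, and others named were chosen after their values were seen. A few genes of the lists are not reported here. DESeq2 1.42.0, limma-voom (limma 3.58.1), other scalings, filters and gene sets, a 2-fold threshold, a replicate block and each library left out were alternatives.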

Additional observations from a re-analysis of the deposited data

How the results depend on the processing

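The calls rest on 3 libraries a group from 1 clone, on TMM scaling across groups that differ in many genes, and on counts whose strand setting is unknown here. Of the 23 called members, 18 kept their direction and their call under every one of the 16 alternatives in which they were tested, except a test against a 2-fold change, and none reversed. ITGA1, which passed the filter through WT alone, and ITGA2, which would not have passed it on WT alone, were tested in 15. Of the 44 called pathway genes other than CD38, 32 did so, and none reversed. The test against a 2-fold change left 1061 genes (556 higher, 505 lower) and 6 members (3 higher, 3 lower). It left 5 integrin activators and linkers (2 higher, 3 lower) and, over all pathway lists with CD38 included, 9 genes (3 higher, 6 lower). It calls fewer genes by its own construction. With each library left out in turn, the count ranged from 7767 to 8761 for all genes and from 20 to 23 for the members. Over the libraries left out, the direction turned for 4 uncalled members: ITGA5 ranged from -0.057 (without CD38 KO replicate 2) to 0.77 log2, ITGAV from -0.068 to 0.00904 (without CD38 KO replicate 3), ITGB2 from -0.48 to 0.061 (without CD38 KO replicate 3) and ITGAD from -0.37 (without CD38 KO replicate 3; -0.06 without WT replicate 2) to 0.87; the cause was not tested. The labels give no pairing beyond the number, and the deviations of same-numbered libraries correlated at 0.0337, -0.0080 and -0.0207. A fit with the replicate number as a block called 8918 genes and 23 members, 13 higher and 10 lower, and changed no member's call. Members under 1 CPM in both groups, 13 of 39, are limited by depth.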
